A study of Mus musculus with 3 samples.

Results

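Solute carriers are membrane proteins that move sugars, amino acids, ions, metals, vitamins and metabolites across the plasma membrane and organelle membranes. Their genes are named Slc, then a family number, a letter and a member number. Genes were taken as members when their symbol had that form and their brightest probe set read an intensity of 100 or more on at least 1 of 3 arrays. The array held 347 such genes in 51 families, and 201 of them, from 46 families, were kept among 10926 genes of any kind that passed the same limit out of 18193. The members were thus selected on their intensity, and their level is no finding. The differences between genotypes did not enter the selection, although a dim gene could pass through the array on which it was highest.

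The 3 arrays held RNA of bone marrow cells that were positive for Sca-1 and negative for lineage markers, from C57BL/6J mice aged 10 weeks. One array came from wild type mice, 1 from mice of Tg(Ly6a-KDM1A*v2, Line 6, and 1 from Tg(Ly6a-KDM1A*v2, Line 3. KDM1A, also called LSD1, is a histone demethylase, and Ly6a, which the construct's name holds, encodes Sca-1, the surface marker used to isolate the cells. The study compared the transgenic lines with wild type. The labels name neither the cells in which the construct is active nor the number of mice behind an array. With 1 array per genotype, the differences below have no replicate error, and no test or p-value is given for them; a fit that takes both lines as 1 group is given only as an alternative. Each line was compared with the same wild type array, so the comparisons of Line 6 and Line 3 share their control. Groups of 3 intensities below are always in the order wild type, Line 6, Line 3, and pairs of differences in the order Line 6, Line 3.

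Carriers decide which nutrients a blood cell can use. Progenitors and granulocytes take up glucose through GLUT proteins of the SLC2 family and export lactate through monocarboxylate transporters of the SLC16 family. Macrophages and neutrophils use SLC11A1 to remove metal ions from the phagosome. Maturing red cells depend on mitochondrial iron and glycine carriers for haem and on the anion exchanger SLC4A1 in their membrane.

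Kdm1a read 2104, 2575 and 2979. Whether the Kdm1a probe set sees the transgene's transcript could not be settled. Of the progenitor genes, Kit read 603 to 923, Cd34 971 to 2315 and Flt3 570 to 1152, each lowest in wild type. The lineage gene Itgam was also bright, at 2653, 1088 and 713, while Cd3e was dimmer, at 258, 292 and 133. Ly6a and Ly6g were not analysed here. The summed intensity of 13 neutrophil markers was 166537, 123527 and 104152, and that of 9 stem and progenitor markers 3163, 5737 and 7510. Sums were 3540, 11303 and 4027 for 9 B cell markers, and 14932, 15024 and 26269 for 8 mast cell and basophil markers. The 11 macrophage markers summed to 15146, 17190 and 19431, of which Csf1r alone read 7100, 5825 and 6468. Of these 11, 8 were above wild type in both lines and 3 below. Sums for T cells were 2491, 3852 and 3238, for megakaryocytes 1788, 3051 and 2493, and for plasmacytoid dendritic cells 7125, 10429 and 9172. The red cell gene Hba-a1, at 5.83, 8.35 and 17.8, and the mast cell gene Tpsb2, at 27.1, 53 and 7.61, were too dim to be told from background. The samples are mixed RNA, in which fewer cells of a type and less RNA per cell cannot be told apart, and the part of these markers in the differences below was not tested.

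Most members differed by less than 2-fold between genotypes. A difference is given as line minus wild type in log2(intensity + 16), and genes past 2-fold, a log2 difference of 1, are called higher or lower. The median difference of the 201 members was 0.05 in Line 6 and 0.08 in Line 3, against 0.07 and 0.12 over all genes kept. The SD over members was 0.54 in Line 6 and 0.66 in Line 3, and 0.39 between the lines. Over all genes kept it was 0.48, 0.6 and 0.39 in the same order. Within 1.2-fold in both lines, a limit chosen after the values were seen, were 26.9% of members, beside 31.5% of all genes kept. Within 2-fold in all 3 comparisons were 170 members, 84.6%, beside 89.7% of all genes kept. Of the members, 163 reached 100 on 3 arrays, 22 on 2 arrays and 16 on 1 array.

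In Line 6, 7 members were higher (3.48%, beside 2.76% of all genes kept) and 7 lower (3.48%, beside 2.39%). In Line 3, 11 were higher (5.47%, beside 3.59%) and 15 lower (7.46%, beside 4.39%). In both lines 5 were higher (2.49%, beside 1.36%) and 5 lower (2.49%, beside 2.05%). Many called genes were under the limit of 100 on the low side, and a gene that entered only through arrays where it is high had to differ. Of the members higher in both lines, 4 of 5 (Slc16a9, Slc30a2, Slc35d3 and Slc45a3) were below 100 in wild type, and of those lower in both, 3 of 5 (Slc12a5, Slc16a14 and Slc35e4) were below 100 in both lines. In the comparison of Line 3, the low side was below 100 for 7 of the 11 higher and 6 of the 15 lower, and in that of Line 6 for 6 of 7 and 4 of 7. Each share lay within a few percentage points of its background, and no test of the excess was possible. Scaling mattered for Line 6, whose log2 median over all probe sets lay 0.24 above wild type: its 7 higher and 7 lower became 3 and 8 with quantile normalization, 3 and 15 with centring on array medians and 3 and 9 with cyclic loess. The 5 and 5 of both lines became 3 and 6, 3 and 12, and 3 and 7 in the same order. In Line 3 the counts stayed between 9 and 10 higher and 15 and 16 lower under those scalings.

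The called members differed in brightness. When the members were split at their median mean intensity of 463, the brighter 101 held 1 member higher and 7 lower in Line 3. That was 0.99% higher, beside 1.4% of 6938 genes of that brightness, and 6.93% lower, beside 3.57%. In Line 6 the brighter members held 0 higher (beside 0.692%) and 1 lower (0.99%, beside 1.69%). The dimmer 100 held the other called members. In Line 3 these were 10 higher (10%, beside 7.4% of 3988 genes of that brightness) and 8 lower (8%, beside 5.82%), and in Line 6 they were 7 higher (7%, beside 6.37%) and 6 lower (6%, beside 3.61%). Read against genes of like brightness, several of these shares were near the background. All 5 members higher in both lines were dim genes (5% of the dimmer members, beside 3.06% of genes of that brightness). The split was chosen after the values were seen.

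**Figure D1:**
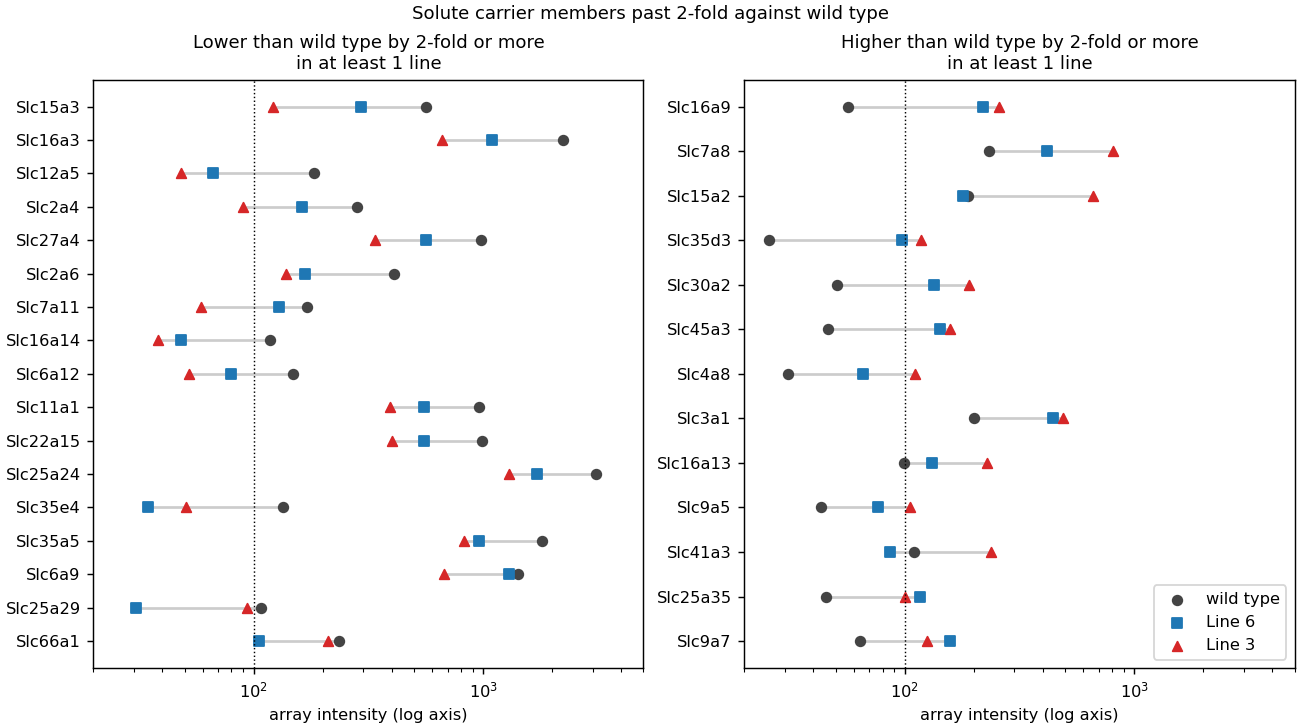
Intensities of the members past 2-fold in either line, on a log axis, 1 point per array. The dotted line is the intensity limit of 100, below which several of the called members lay in wild type, such as Slc16a9 at 56.7, or in a line, such as Slc35e4 at 34.8 in Line 6.

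Intensities of different probe sets cannot be compared as levels of their genes. The brightest member was Slc4a1, the chloride and bicarbonate exchanger of the red cell membrane, at 12742, 12348 and 8268. Slc25a5, which exchanges ADP and ATP across the inner mitochondrial membrane, read 7706, 7287 and 7372. Slc38a10 read 7613, 7167 and 7080, and Slc44a2, a choline transporter-like protein, read 6299, 6275 and 5632. The mitochondrial phosphate carrier Slc25a3 read 4424, 4620 and 5263, the NAD carrier Slc25a51 3552, 4206 and 3751, the neutral amino acid carrier Slc43a2 4141, 4312 and 3921, and the zinc importer Slc39a6 3834, 3519 and 4144. Each of these carriers lay within 2-fold on the 3 arrays. At the edge of the selection, Slc13a3, Slc9a5 and Slc25a27 reached at most 104, 105 and 105, and Slc27a2, Slc12a3 and Slc6a4 stopped at 99.1, 99.3 and 93.1.

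Transport classes, 16 in all, were set by family number. For amino acids 30 of 63 genes on the array were kept, and for the mitochondrial SLC25 family 38 of 44. All 10 genes for iron, copper, magnesium and haem were kept, whereas 11 of 40 for organic ions, bile acids and vesicular cargo were. Class medians lay between -0.27 and 0.45 in both lines. Centring on array medians put the Line 6 median of all 16 classes below 0, as it did that of all genes kept (-0.17), so small class medians in Line 6 have no settled direction. Vitamin carriers had the highest median in Line 3, 0.45, which was 0.41 to 0.42 under the other scalings, 0.3 with a pseudocount of 64 and 0.28 with the median of probe sets, and their Line 6 median of 0.11 turned to -0.13 with centring on array medians and to -0.02 with cyclic loess.

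**Figure D2:**
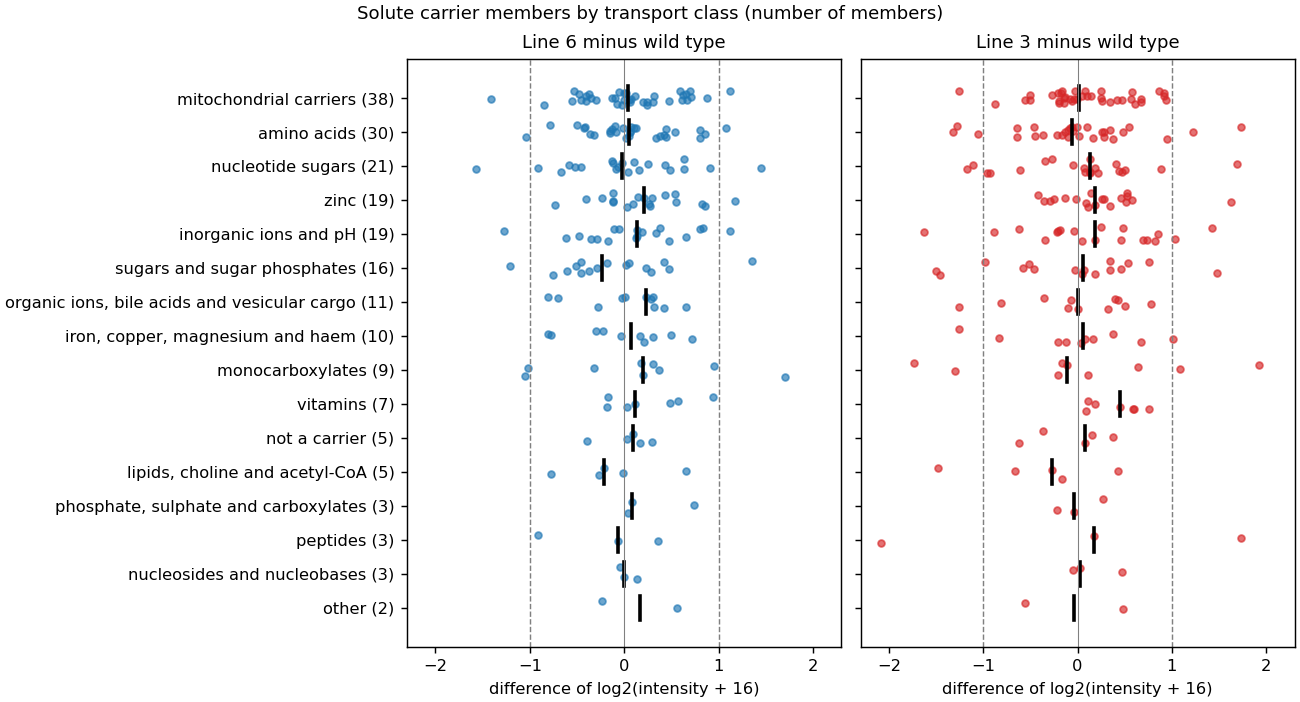
Log2 differences of each member from wild type, Line 6 and Line 3, by transport class, with the class median as a bar. Classes scatter around 0, and the vitamin carriers sit highest in Line 3 with a median of 0.45.

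Several glucose and lactate carriers read lower in the lines, while others of the same families read higher or alike. Slc2a3 encodes GLUT3, a high-affinity glucose transporter, and read 7717, 5040 and 3895 (-0.61 and -0.98). Its other probe sets were also lower in both lines, at 2094, 843 and 481 (-1.30 and -2.09), at 1194, 566 and 289 (-1.05 and -1.99), and at 6069, 3527 and 2304 (-0.78 and -1.39). The gene was therefore within 2-fold by its brightest probe set and past 2-fold in Line 3 by each other one. Slc2a1, for GLUT1, read 2489, 1808 and 1805, a difference of -0.46 in both lines, and is named after its values were seen.

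Slc2a6, for the lysosomal sugar transporter GLUT6, read 407, 167 and 138, with the wild type array well above both lines (-1.21 and -1.46). Slc2a4, for the insulin-responsive GLUT4, read 283, 162 and 89.8, past 2-fold in Line 3 alone (-0.75 and -1.5). Slc45a3, a carrier of the SLC45 sugar family, went the other way, at 46.2, 142 and 157 (1.35 and 1.48), and a second probe set of it read 72.2, 87 and 114 (0.22 and 0.56). The 16 sugar carriers kept had a median of -0.24 in Line 6, between -0.34 and -0.47 under the other scalings but -0.09 with the median of probe sets, and 0.06 in Line 3, where cyclic loess gave -0.03.

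Among the monocarboxylate carriers, Slc16a3 and Slc16a1 differed in their pattern. Slc16a3 encodes MCT4, the low-affinity lactate exporter of glycolytic cells, and read 2224, 1092 and 661 (-1.02 and -1.73). Slc16a1, for MCT1, is named after its values were seen and read 2255, 2601 and 2438 (0.20 and 0.11). Its dim other probe set read 43, 124 and 64.8 (1.25 and 0.45). Bsg, the chaperone subunit of MCT4 and MCT1 and no Slc gene, read 4524, 4578 and 5419. The call of Slc16a3 in Line 6 lies at the limit, and quantile normalization gave -0.98. Neutrophil marker intensity was also lower in both lines (median of 13 markers -0.81 and -1.12), with 11 markers below wild type in both and 1 above. The part of neutrophil markers in the lower Slc16a3 and Slc2a3 was not tested.

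Slc16a9, for the carnitine and creatine carrier MCT9, had the largest positive difference of any member in both lines, at 56.7, 220 and 258 (1.70 and 1.92). With the median over its probe sets the differences were 0.65 and 0.46, short of 2-fold. Slc16a14, an orphan member of the family, read 118, 48.4 and 38.1 (-1.05 and -1.30). Slc16a13 read 98.8, 132 and 229 and was higher in Line 3 alone (0.37 and 1.09). Slc16a4 read 132, 269 and 116, with Line 6 apart from the other arrays (0.95 and -0.16).

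**Figure D3:**
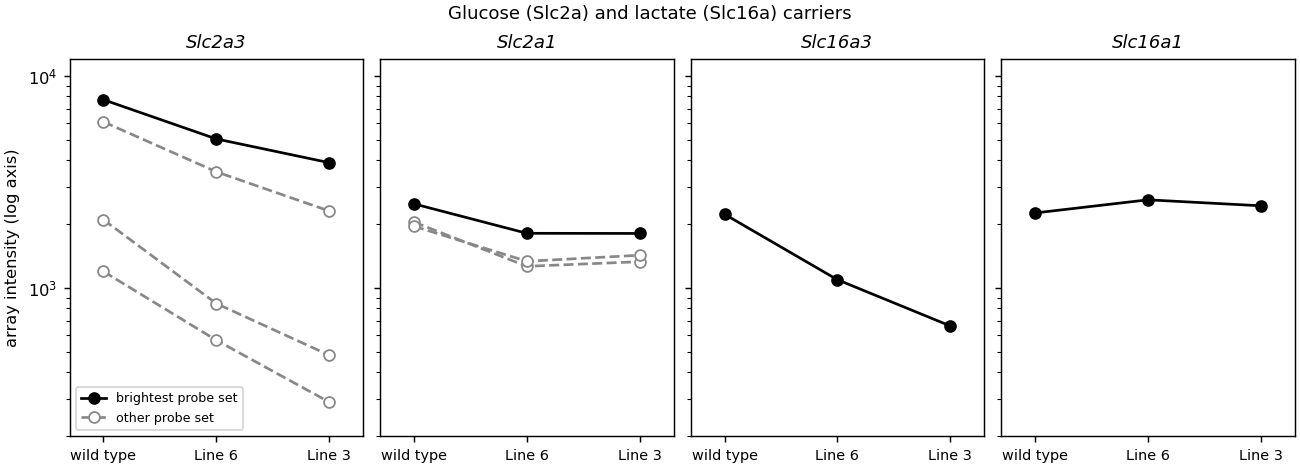
Intensities of Slc2a3, Slc2a1, Slc16a3 and Slc16a1 on the 3 arrays (log axis), the brightest probe set with filled points and other probe sets at or above 100 with open points; connecting lines only join arrays. Slc2a3 and Slc16a3 are highest in wild type and lowest in Line 3, whereas Slc16a1 stays between 2255 and 2601 by its brightest probe set. A dim other probe set of Slc16a1, at 43, 124 and 64.8, lies below the axis and is not seen.

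The promoters of Slc16a3 and Slc2a1 are shown because both genes are known to respond to hypoxia, and capitals mark ACGTG, the core of the hypoxia response element, on either strand. They are the 250 bases before and 50 after the start, from RefSeq on GRCm38.p6. Slc16a3 lies on the forward strand at chr11:120948817-120949116, and Slc2a1 on the forward strand at chr4:119108495-119108794.
Slc16a3: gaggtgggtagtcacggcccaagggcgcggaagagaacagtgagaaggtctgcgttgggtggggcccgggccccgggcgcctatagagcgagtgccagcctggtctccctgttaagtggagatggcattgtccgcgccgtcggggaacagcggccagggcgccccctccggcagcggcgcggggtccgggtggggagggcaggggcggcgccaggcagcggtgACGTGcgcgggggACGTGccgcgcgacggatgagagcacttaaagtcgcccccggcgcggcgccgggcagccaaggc
Slc2a1: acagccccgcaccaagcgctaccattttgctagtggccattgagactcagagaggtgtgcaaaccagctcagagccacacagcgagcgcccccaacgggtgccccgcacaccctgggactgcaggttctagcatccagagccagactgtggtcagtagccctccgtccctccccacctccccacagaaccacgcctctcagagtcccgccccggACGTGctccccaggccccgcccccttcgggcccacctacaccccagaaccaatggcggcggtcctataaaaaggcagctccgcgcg
The core was present in 55 of 157 members with a promoter (35%), beside 29.9% of the genes kept and 21.8% of all genes with a promoter. A gene was counted when any of its promoter windows held a match, and some genes have several windows. Slc16a1, which did not read lower in the lines by its brightest probe set, holds 3 matches. Of these, 2 are the same CACGTG read on both strands. Slc16a3 holds 2 matches and Slc2a1 holds 1. The motif was chosen after the values were seen, and a match is a description of letters, not of binding. The table used here holds no promoter of Slc2a3.

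Amino acid carriers were found on both sides. Of the 30 kept, Line 6 had 1 higher and 1 lower and Line 3 had 2 higher and 3 lower, with medians of 0.05 and -0.05. Over all genes kept, 2.76% were higher and 2.39% lower in Line 6, and 3.59% and 4.39% in Line 3. Within 2-fold in both lines were 80% of the amino acid members, beside 90.3% of all genes kept. Nothing particular to this class is read from so few calls. Slc3a1, the heavy chain of the cystine and dibasic amino acid transporter, read 201, 443 and 489 and was higher in both lines (1.08 and 1.22), although its Line 6 difference was 0.85 to 0.96 under the other scalings. Slc7a8, a light chain for neutral amino acids (LAT2), read 233, 418 and 806, past 2-fold in Line 3 alone (0.80 and 1.73). Slc3a2, the shared heavy chain, read 2547, 2034 and 2463, and its main partner Slc7a5 1182, 1240 and 1265; both are named after their values were seen.

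Slc7a11, the cystine and glutamate exchanger that feeds glutathione, read 171, 129 and 59 (-0.36 and -1.32). Slc6a12, the betaine transporter, read 149, 79.4 and 52.1 (-0.79 and -1.28). Slc6a9, the glycine transporter GLYT1, read 1416, 1294 and 675, low only in Line 3 (-0.13 and -1.05), and its other probe set read 276, 332 and 132 (0.26 and -0.98). Slc66a1, which exports cationic amino acids from lysosomes, read 236, 106 and 210, low only in Line 6 (-1.04 and -0.16). Slc7a1, Slc38a1 and Slc38a2, plasma membrane carriers named after their values were seen, stayed within 2-fold: Slc7a1 read 1808, 2458 and 2298, Slc38a1 1892, 2580 and 2768, and Slc38a2 2489, 2519 and 2328.

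Amino acid shortage acts on carrier genes through the C/EBP-ATF response element, whose core was searched as TGATGNAA on both strands. It was present in 3 of 24 amino acid members with a promoter (12.5%). The share was 6 of 157 for all members (3.82%), 2.78% for the genes kept and 4.51% for all genes with a promoter. The 3 amino acid carriers with a match are shown, with the match in capitals. The other 3 members with a match carry other substrates: Slc50a1, a sugar carrier, read 496, 586 and 631, Slc9a9, a sodium and proton exchanger, 361, 400 and 431, and Slc49a4 578, 652 and 532. Slc7a11 lies on the reverse strand at chr3:50443564-50443863, Slc1a4 on the reverse strand at chr11:20332664-20332963 and Slc7a7 on the reverse strand at chr14:54417895-54418194, the latter being 1 of 5 windows of its gene.
Slc7a11: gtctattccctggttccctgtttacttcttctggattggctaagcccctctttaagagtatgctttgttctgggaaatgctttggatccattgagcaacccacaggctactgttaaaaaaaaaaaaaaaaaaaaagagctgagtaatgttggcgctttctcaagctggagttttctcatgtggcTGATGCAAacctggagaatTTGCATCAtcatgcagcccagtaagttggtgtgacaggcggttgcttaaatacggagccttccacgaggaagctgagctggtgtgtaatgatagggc
Slc1a4: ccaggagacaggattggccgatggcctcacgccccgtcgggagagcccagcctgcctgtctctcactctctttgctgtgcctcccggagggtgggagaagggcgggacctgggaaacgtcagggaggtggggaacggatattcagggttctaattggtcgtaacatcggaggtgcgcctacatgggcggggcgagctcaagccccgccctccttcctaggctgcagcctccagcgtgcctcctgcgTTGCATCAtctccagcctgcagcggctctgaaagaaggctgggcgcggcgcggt
Slc7a7: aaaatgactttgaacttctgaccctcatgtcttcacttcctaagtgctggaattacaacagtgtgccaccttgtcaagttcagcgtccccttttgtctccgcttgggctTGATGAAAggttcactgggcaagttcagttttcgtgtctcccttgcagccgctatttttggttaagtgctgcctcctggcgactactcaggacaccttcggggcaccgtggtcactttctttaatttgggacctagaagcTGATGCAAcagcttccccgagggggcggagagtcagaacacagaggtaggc
Slc1a4, a neutral amino acid transporter, read 189, 136 and 143 (-0.43 and -0.37), and Slc7a7, a light chain for dibasic amino acids, read 436, 303 and 312 (-0.50 and -0.46). Slc7a11, Slc1a4 and Slc7a7 read below wild type in both lines, as did 36.7% of the amino acid members and 30.2% of all genes kept. Only Slc7a11 was past 2-fold, in Line 3. Slc50a1 and Slc9a9 read above wild type in both lines, and Slc49a4 above it in Line 6 and below it in Line 3. Nothing is read from the directions of so few genes. The letters say nothing of whether a factor bound there.

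The largest differences between the lines, in either direction, were of peptide carriers. Slc15a2, which imports dipeptides and tripeptides, read 189, 179 and 663, so that Line 3 alone stood apart (-0.07 and 1.73). Slc15a3, a lysosomal histidine and peptide carrier of immune cells, read 564, 293 and 121 (-0.91 and -2.08), the most negative difference of any member in Line 3. Under the other scalings Slc15a3 was also past 2-fold in Line 6, at -1.02 to -1.14. With the median over its probe sets, Slc15a2 was above wild type in both lines (1.12 and 1.64).

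Of the mitochondrial carriers, 35 of 38 lay within 2-fold in both lines (92.1%, beside 90.3% of all genes kept), with medians of 0.03 and 0.02. Slc25a24, which exchanges ATP-magnesium for phosphate, read 3111, 1720 and 1294 (-0.85 and -1.26), and its other probe set 1098, 546 and 494 (-0.99 and -1.13). Slc25a29, a carrier of basic amino acids, read 108, 30.8 and 93.8 (-1.41 and -0.18), but its other probe sets read 118, 62.7 and 44.1 and 106, 46.7 and 56, lower in both lines. Slc25a35 read 45.2, 117 and 100 (1.12 and 0.92), and its Line 6 difference was 0.88 to 0.9 under the other scalings.

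Of the 19 zinc carriers, 11 were above wild type (57.9%, beside 49% of all genes kept) and 4 below it (21.1%, beside 30.2%) in both lines, with medians of 0.21 and 0.19; the Line 6 median turned to -0.03 with centring on array medians. Slc30a2, which loads zinc into vesicles, read 50.7, 134 and 191 (1.17 and 1.63), with 0.93 to 0.95 in Line 6 under the other scalings. Slc30a4, also a vesicular zinc exporter, read 197, 372 and 289 (0.86 and 0.52). Slc41a3, a magnesium carrier of the iron and metal class, read 110, 86.5 and 237, high in Line 3 alone (-0.30 and 1.01), and its second probe set read 70.5, 67.3 and 115; other scalings gave 0.92 to 0.97 in Line 3. Slc11a1, the phagosomal metal transporter NRAMP1, read 964, 555 and 394 (-0.78 and -1.26), and Slc31a2, a copper carrier, 1354, 767 and 755 (-0.81 and -0.83). Both were lower where neutrophil marker intensity was lower, although only 11 of the 13 neutrophil markers were below wild type in both lines. The 11 macrophage markers had medians of 1.21 and 1.46, but 3 of them, Itgam, Cd68 and Csf1r, were below wild type in both lines. Neither link was tested.

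Carriers tied to haem and mitochondrial iron differed among themselves. Slc25a37, mitoferrin 1, which imports iron into the mitochondria of red cell precursors, read 3021, 3026 and 1630 (0.00 and -0.88). Slc4a1 had differences of -0.05 and -0.62, with its other probe sets at 3306, 2815 and 1513 and at 9506, 9312 and 5429. Slc6a9, described above, supplies glycine for haem. Alas2, the first enzyme of haem synthesis in red cells, read 2782, 2198 and 928 (-0.34 and -1.57). The summed erythroid markers, which include Alas2, were 24766, 26678 and 26678. Car2, the brightest of them, read 9654, 10326 and 10907, so the sum mostly follows a few bright genes. The 7 erythroid markers kept had medians of 0.1 and 0.14. In both lines 4 of them were above wild type and 2, Alas2 among them, below. Slc40a1, the iron exporter, read 2299, 1974 and 1984, and Slc25a38, the mitochondrial glycine carrier, 614, 662 and 554. The haem carrier Slc48a1, at 1834, 1798 and 1933, and Slc25a39, at 2925, 2960 and 3032, were highest in Line 3 by a small margin, and Slc25a28, mitoferrin 2, was lowest in Line 6 at 964, 742 and 859. Of the members in this paragraph, only Slc6a9 was past 2-fold by its brightest probe set, in Line 3. The 11 iron handling genes outside the Slc families held no call, and their medians were 0.14 and 0.12. This group was drawn together after the values were seen, and the part of red cell precursors in it was not tested.

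The 21 nucleotide sugar and related SLC35 carriers had medians of -0.02 and 0.13. Slc35d3, known from platelet dense granules, read 25.5, 97.3 and 118 and was higher in both lines (1.45 and 1.69), and its wild type intensity lay close to the added 16. Slc35e4 read 134, 34.8 and 50.8 (-1.57 and -1.17), but the median over its probe sets reversed its direction in Line 3, to 0.75. Slc35a5 read 1810, 958 and 829 (-0.91 and -1.11), and its other probe sets, at 1120, 722 and 503 and at 440, 238 and 167, were lower in both lines too, while a dim one read 102, 98.6 and 50.6 (-0.04 and -0.82). Slc35e1 read 2613, 1641 and 1362 (-0.67 and -0.93).

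Ion carriers contributed dim genes to both sides. Slc12a5, the potassium and chloride exporter KCC2, read 183, 66.7 and 48.2 (-1.27 and -1.63). Slc4a8, a sodium-driven chloride and bicarbonate exchanger, read 31.1, 65.8 and 111 (0.80 and 1.43), but the median over its probe sets was -0.28 in Line 3. Slc9a7, a sodium and proton exchanger of the Golgi, read 64, 158 and 125 (1.12 and 0.82), with 0.88 to 0.91 in Line 6 under the other scalings, and Slc9a5 read 43.2, 76.7 and 105 (0.65 and 1.03). Slc13a3, a dicarboxylate carrier at the limit of the selection, read 55.8, 104 and 45.8 (0.74 and -0.22).

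The remaining classes gave few calls. Slc27a4, which activates and imports fatty acids, read 974, 561 and 338 (-0.78 and -1.48), whereas Slc27a1 read 507, 812 and 689 (0.66 and 0.43). Slc22a15, an organic ion carrier, read 986, 555 and 401 (-0.81 and -1.26), and its other probe set 646, 358 and 171 (-0.82 and -1.82). Slc17a9, the vesicular ATP carrier, read 553, 335 and 308 (-0.70 and -0.81), and Slc14a1, a urea channel, 715, 1062 and 1006 (0.56 and 0.48). Of the vitamin carriers, Slc23a1 for ascorbate read 86, 179 and 138 (0.94 and 0.59), and Slc46a3 356, 506 and 613 (0.49 and 0.76). The lipid carriers' medians of -0.21 and -0.27 stayed below 0 under every scaling tried. Slc66a2 read 1313, 1116 and 888, the phosphate carrier Slc20a2 380, 402 and 462, the nucleoside carrier Slc29a1 166, 185 and 236, and Slc43a3, a purine carrier, 2133, 2139 and 2055. Among 5 members whose symbols do not denote carriers, the scaffold Slc9a3r1 read 4818, 3667 and 3132 and Slc7a6os 833, 1022 and 1090.

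Line 3 and Line 6 differed by 2-fold in few members. Line 3 was above Line 6 for 3 members (1.49%, beside 0.714% of all genes kept) and below for 2 (0.995%, beside 1.71%). Centring gave 5 and 0, and quantile normalization and cyclic loess 4 and 1 each. Slc15a2 led with a Line 3 minus Line 6 difference of 1.80, followed by Slc41a3 at 1.31 and Slc25a29 at 1.23. With the median of probe sets these became 0.52, 0.65 and 0.36. Then 0 members were above Line 6 by 2-fold, beside 0.54% of all genes kept. Slc15a3 at -1.18 and Slc16a4 at -1.11 were the members below, and the latter was -0.91 to -0.99 under the other scalings and -0.79 with the median of probe sets. The mast cell and basophil sum was also highest in Line 3 and the B cell sum highest in Line 6, and their part in these differences was not tested. Close to the limit were Slc7a8 at 0.92, Slc66a1 at 0.88, Slc7a11 and Slc13a3 at -0.96, Slc6a9 at -0.92 and Slc25a37 at -0.89. With 1 array per line, the difference between these 2 transgenic lines cannot be told apart from the difference between 2 arrays.

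**Figure D4:**
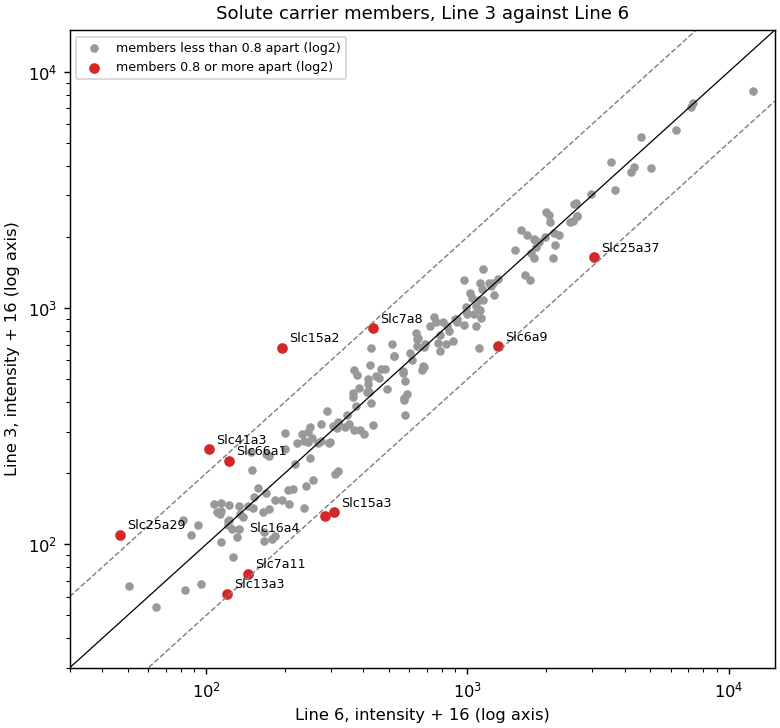
Intensity + 16 of each member in Line 6 (x axis) and Line 3 (y axis), log axes, 1 point per member; the solid line marks equal values, dashed lines 2-fold, and red points members 0.8 or more apart on the log2 scale. Most points lie between the dashed lines, and Slc15a2 is farthest above them, at a difference of 1.80.

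Where a member had several probe sets, the brightest was used, and 119 of the 201 had more than 1. Of the 31 members past 2-fold in any comparison, only 8 had another probe set at or above 100. Dimmer probe sets are not in the counts below, and the median over all probe sets reversed Slc35e4 and Slc4a8 in Line 3. Members called in Line 3 had 9 other probe sets at or above 100, all 9 in the same direction and 5 past 2-fold. Members called in Line 6 had 3, all in the same direction and 0 past 2-fold. Probe sets past 1.2-fold in opposite directions, a limit chosen after the values were seen, belonged to 2 members in each line. In Line 6 the zinc carrier Slc39a9 read 385, 469 and 534 by its brightest probe set and 104, 73 and 88.2 by another, and Slc45a4 read 569, 408 and 556 against 11.1, 66 and 101. In Line 3 the mitochondrial carrier Slc25a25 read 365, 282 and 254 against 166, 180 and 257, and Slc35a4 read 1918, 1975 and 2547 against 1167, 748 and 779. None of these 4 members was called by its brightest probe set.

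Transporters outside the rule are given for comparison. Of 23 carriers with other symbols, 1 was higher and 1 lower in both lines, and Spns3, at 713, 1426 and 1596, was past 2-fold in Line 3 alone. Spns2, the sphingosine 1-phosphate exporter, read 163, 438 and 502, and Sfxn5, a mitochondrial sideroflexin, 1709, 768 and 209. Of 24 ABC transporters, 1 was lower in both lines, Abca13 at 465, 193 and 102, and 3 were higher in Line 3: Abca1 at 128, 270 and 309, Abca2 at 208, 279 and 552, and Abcc3 at 140, 249 and 296. Of 4 Slco genes, Slco2b1 was higher in both lines at 85.4, 254 and 274, and Slco4c1 was lower in Line 3 at 1184, 691 and 409. Over all genes kept, 1.36% were higher and 2.05% lower in both lines and 3.59% higher and 4.39% lower in Line 3, and nothing particular to these short lists is read from their counts.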

How the data were processed

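RNA of 3 samples was amplified with the Ovation Pico WTA System and hybridised to Affymetrix arrays, per the labels' protocols. The deposited values are linear intensities per probe set. How the authors summarised and scaled these intensities was not stated in the sources used here. Each array had the same mean, 497, once 2% was trimmed at both tails, and medians were 96.2, 116 and 99 for wild type, Line 6 and Line 3. Detection calls were not used here.

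Of 45037 probe sets, 34945 had 1 gene symbol in the platform annotation, 932 had several and 9160 were not listed. Symbols of 34741 were updated through Entrez identifiers (GRCm38.p6) and 204 kept. Another 6 probe sets that carry a solute carrier symbol beside other symbols were not used. Each gene took its brightest probe set by mean intensity. The deposited intensities were transformed as log2(intensity + 16), which understates differences of dim genes. Transport classes follow family numbers, with single genes moved where the known substrate differs.

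The members and lists were chosen with earlier results of these data known. Genes were named by rule: the 10 brightest, those past 2-fold in both lines, up to 6 per direction past 2-fold in 1 line or with the largest difference between the lines, the 2 with the largest mean difference in each class, those with discordant probe sets, and 3 on each side of the intensity limit. Other genes were chosen after their values were seen, among them Slc35e1, Slc35a5, Slc40a1, Slc25a38, Slc48a1, Slc25a39, Slc25a28, Slc50a1, Slc9a9, Slc49a4 and the related transporters.

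Alternatives were quantile normalization, centring on array medians, cyclic loess (limma 3.58.1, R 4.3.3), pseudocounts of 1 and 64, an intensity limit of 200 or none, the median of probe sets, annotated symbols, and limma with both lines as 1 group. Other steps used Python 3.11.15, pandas 2.3.3 and numpy 2.4.6. The counting was tested on simulated data.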

Additional observations from a re-analysis of the deposited data

Results flagged for a closer look

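Members were listed here when the lines lay on opposite sides of wild type and at least 2-fold apart. Slc15a2 read 189, 179 and 663 (wild type, Line 6, Line 3), a Line 3 minus Line 6 difference of 1.8. Slc41a3 read 110, 86.5 and 237, a difference of 1.31. Slc16a4 read 132, 269 and 116, a difference of -1.11. With the median over its probe sets, Slc15a2 was above wild type in both lines (1.12 and 1.64), and the difference between the lines was 0.52. In the same way Slc16a4 was above wild type in both lines (1.04 and 0.25), with -0.79 between them, and Slc41a3 gave 0.65. With 1 array per line, these differences were not tested.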

How the results depend on the processing

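No paired analysis was possible because each genotype has 1 array, and for the same reason no array could be left out. Members higher and lower in Line 6, 7 and 7, became 3 higher with quantile normalization, 3 higher and 15 lower with centring on array medians, and 3 higher with cyclic loess. Members higher in both lines, 5, became 3 under each of these scalings, and those lower in both, 5, became 12 with centring. Line 3 above Line 6, 3, became 5 with centring, and Line 3 below Line 6, 2, became 1 with quantile normalization, 0 with centring and 1 with cyclic loess. A pseudocount of 64 gave 1 higher and 2 lower in Line 6, 7 higher in Line 3, 1 higher and 1 lower in both lines and 0 for Line 3 below Line 6, and a pseudocount of 1 gave 4 for the last. With the median of probe sets, Line 3 was above Line 6 for 0 members and below for 1. With no intensity limit, which gave 347 members, 13 were higher and 18 lower in Line 6, 17 higher in Line 3, 8 lower in both lines, and Line 3 was above Line 6 for 7 and below for 11. A limit of 200, which left 161 members, gave 2 higher and 3 lower in Line 6, 6 higher in Line 3, and 2 higher and 2 lower in both lines. Members lower in Line 3, 15, stayed within 1.5 times under all of these settings. The median of probe sets reversed Slc35e4 in Line 3, to 0.75, and Slc4a8 in Line 3, to -0.28. Of the 44 called differences of named members, 22 stayed past 2-fold with a pseudocount of 64 and 36 to 38 under the other scalings. The cause of these shifts was not tested.

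Taking both lines as 1 group assumes that wild type varies as the lines do. That limma fit called neither members nor other genes kept after Benjamini-Hochberg adjustment. Only 1 wild type array stands behind the fit, so its p-values are not read here. The number of arrays limits every value, and intensities near 100 lie at the middle of all probe sets, where signal and background could not be told apart.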
